A study of Mus musculus with 11 samples.

Results

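The Pitx homeobox genes Pitx1 and Pitx3 were examined in maps of open chromatin from embryonic mouse monoaminergic neurons. For each of the 2 genes, every row of the deposited peak lists that overlapped the gene body, extended by 50 kb on each side, was taken. This gave 12 rows around 2 of 22367 protein-coding genes, 4 rows at Pitx1 and 8 at Pitx3. Given the 2 genes, the choice of rows used position alone and no measured value. The genes themselves were chosen with earlier results of these data known.

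PITX proteins are transcription factors with a paired-like homeodomain of the bicoid class, which binds DNA words such as TAATCC. Pitx3 is needed for the differentiation and survival of midbrain dopaminergic neurons, where it acts with the nuclear receptor Nr4a2 on genes of dopamine synthesis and storage, and it also acts in the lens and in skeletal muscle. Pitx1 is best known for giving the hindlimb its identity and for activating hormone genes in the anterior pituitary.

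The assay was ATAC-seq, in which the Tn5 transposase inserts adapters into accessible DNA, so that peaks mark open chromatin. Dopaminergic (DA) neurons, 3 libraries, were GFP-positive cells sorted from the ventral mesencephalon of E14.5 TH-GFP embryos, in which the rat Th promoter drives GFP. Serotonergic (5-HT) neurons, 2 libraries, were YFP-positive cells sorted from rhombomeres 1 to 3 of E14.5 Mash1-CRE x ROSA YFP embryos. Mash1 is a proneural gene used by several kinds of neuron precursor, and the purity of the sorted cells was not measured here. Transgenic males were crossed to Swiss wild-type females, the TH-GFP line was kept on a C57BL/6J background, and tissue from several embryos was pooled for a sort. RNA-seq libraries of the same series were not analysed here.

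All 5 lists held the same rows, and a score of 0 stood for no peak. Peaks numbered 52861, 93055 and 94351 in DA replicates 1 to 3, but 38772 in 5-HT replicate 1 and 22879 in 5-HT replicate 2. The DA and 5-HT libraries did not overlap in this number, so it moved with the cell type, and its part in the differences below was examined only by the scalings and equal numbers of peaks given beside them. Scores are given as deposited and as a percentile among the peaks of the same library, where 100 is the highest score and 0 is no peak. In sorted pools, a site open in fewer cells and a site less open in every cell cannot be told apart.

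The sorted cells were checked by the promoters of marker genes, a promoter being 1 kb upstream to 100 bp downstream of a transcription start site (TSS). A promoter peak was found for 59.8%, 63.7% and 62.0% of all protein-coding genes in DA replicates 1 to 3, and for 58.2% and 49.6% in the 5-HT replicates. All 6 DA neuron markers had one in every DA library, and 3 of 6 in each 5-HT library, the latter near the share of all genes. Th, which encodes the rate-limiting enzyme of dopamine synthesis, scored 9.91, 10.6 and 8.45 in DA neurons and was without a peak in the 5-HT libraries. The 6 markers of 5-HT neurons were mixed. Of these, DA replicates 1 to 3 had a promoter peak at 4, 5 and 4, and the 5-HT replicates at 4 and 3, near the share of all genes in most libraries, and their summed percentiles were 247, 283 and 270 against 225 and 155. Mean percentiles were higher in 5-HT than in DA neurons for Fev, Gata2 and Gata3, and lower for Slc6a4, Tph2 and Htr1a. Only Fev, a regulator of 5-HT identity, had its peak in a 5-HT library alone, with a score of 3.88 in replicate 1 and no peak in replicate 2. Gata2, a GATA factor of 5-HT precursors, had percentiles of 41.7 and 0 in 5-HT neurons and 0, 4.2 and 0 in DA neurons, and its relative Gata3 had 65.8 and 95.5 against 73.6, 51.5 and 61.7. Slc6a4, the serotonin transporter gene, had its promoter peak in the 3 DA libraries alone, and the promoter of Tph2, which encodes the enzyme that starts serotonin synthesis in neurons, had peaks in all 5 libraries.

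Pitx3 lies on the minus strand of chromosome 19 (mm9 chr19:46210175-46222865), and its principal transcript starts at 46222865. The row at this start, chr19:46222166-46223358, is 1193 bp long and covers 493 bp outside any gene, 175 bp of untranslated exon and 525 bp of intron. It had a peak in all 5 libraries, as did a promoter row of 48.5% of protein-coding genes. Across DA replicates 1 to 3 it scored 11.0, 11.9 and 9.28, whereas 5-HT replicate 1 gave 4.97 and 5-HT replicate 2 gave 2.96. Every DA score was thus above every 5-HT score. As percentiles within a library these were 93.5, 94.1 and 91.7 in DA neurons against 61.9 and 8.34 in 5-HT neurons. The Pitx3 promoter ranked 3432nd, 5454th and 7789th among the peaks of the DA libraries, and 14785th and 20969th in the smaller 5-HT lists.

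The mean percentile of the Pitx3 promoter was 93.1 ± 1.24 (SD, n = 3) in DA neurons and 35.1 ± 37.9 (SD, n = 2) in 5-HT neurons, a difference of 58.0 points. The 2-sided exact permutation test gave p = 0.1, the smallest p that 3 libraries against 2 allow, so no difference between the cell types could pass 0.05 here. The DA libraries lay close together, whereas the 5-HT libraries were 53.5 points apart, a wider gap than 96.9% of the genes with a promoter peak in all 5 libraries showed between the same libraries (median 10.8). Against 5-HT replicate 1 alone the difference was 31.3 points, and against 5-HT replicate 2 alone it was 84.8 points.

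Percentiles above both 5-HT libraries in all 3 DA libraries were common. Among the 10843 protein-coding genes with a promoter peak in all 5 libraries, 57.1% had this order, so the order alone does not set Pitx3 apart. The median difference over these genes was 13.0 points, and 90% of them lay between 0.057 and 40.7. Pitx3, at 58.0 points, was above 99.7% of them, with 31 genes at or above this value, itself included. Genes that lack a promoter peak in some library are outside this set, such as Th at 90.5 points and Lmx1a at 55.3. Pitx3 was inside it with a score of 2.96 in 5-HT replicate 2, whose lowest listed score was 2.83. Its place among all genes with a promoter peak was not worked out. Against 5-HT replicate 1 alone Pitx3 was above 93.5% of the genes of the set, and against replicate 2 alone above 99.9%. This place was also seen on scales chosen after the data had been seen. With each library limited to its 22879 highest-scoring peaks, the Pitx3 percentiles were 85.0, 76.2 and 66.0 in DA neurons and 35.4 and 8.34 in 5-HT neurons, and the difference of 53.9 points was above 99.9% of the genes, whose median was -1.66. With each score divided by the library's median over the rows open in all 5 libraries, the values were 1.46, 1.29 and 1.15 against 0.879 and 0.743, and the difference of their log2 values was above 99.2% of the genes.

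The 250 bases upstream of the principal Pitx3 start are shown. The reason is that, of the 3 window rows open in all 5 libraries, this promoter had the widest DA to 5-HT difference in percentile. In deposited scores the difference at the Gbf1 promoter was wider. The stretch is mm9 chr19:46222866-46223115 on the minus strand, written 5′ to 3′ with the start following the last base.
Pitx3 promoter: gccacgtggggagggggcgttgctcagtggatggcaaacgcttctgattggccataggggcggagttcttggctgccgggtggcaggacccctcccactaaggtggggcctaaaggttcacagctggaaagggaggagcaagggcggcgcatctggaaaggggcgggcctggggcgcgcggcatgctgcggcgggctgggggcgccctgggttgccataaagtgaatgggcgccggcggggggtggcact
Its GC content is 68.4% and its observed to expected CpG ratio is 0.643. Neither TAATCC nor the nuclear receptor word AAGGTCA, searched on both strands, occurs in it or elsewhere in the 1193 bp row. The RefSeq table holds a promoter for 1 of the 2 members, Pitx3.

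Pitx3 has 2 further annotated starts. At the start of a retained-intron transcript near the 3′ end of the gene, the row chr19:46211545-46212022 had scores of 4.01 in DA replicate 1 and 5.75 in DA replicate 2, while DA replicate 3 and the 5-HT libraries had none there. The coding transcript that starts at 46215473 had no promoter row, and the nearest row lay 3.45 kb away.

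**Figure D1:**
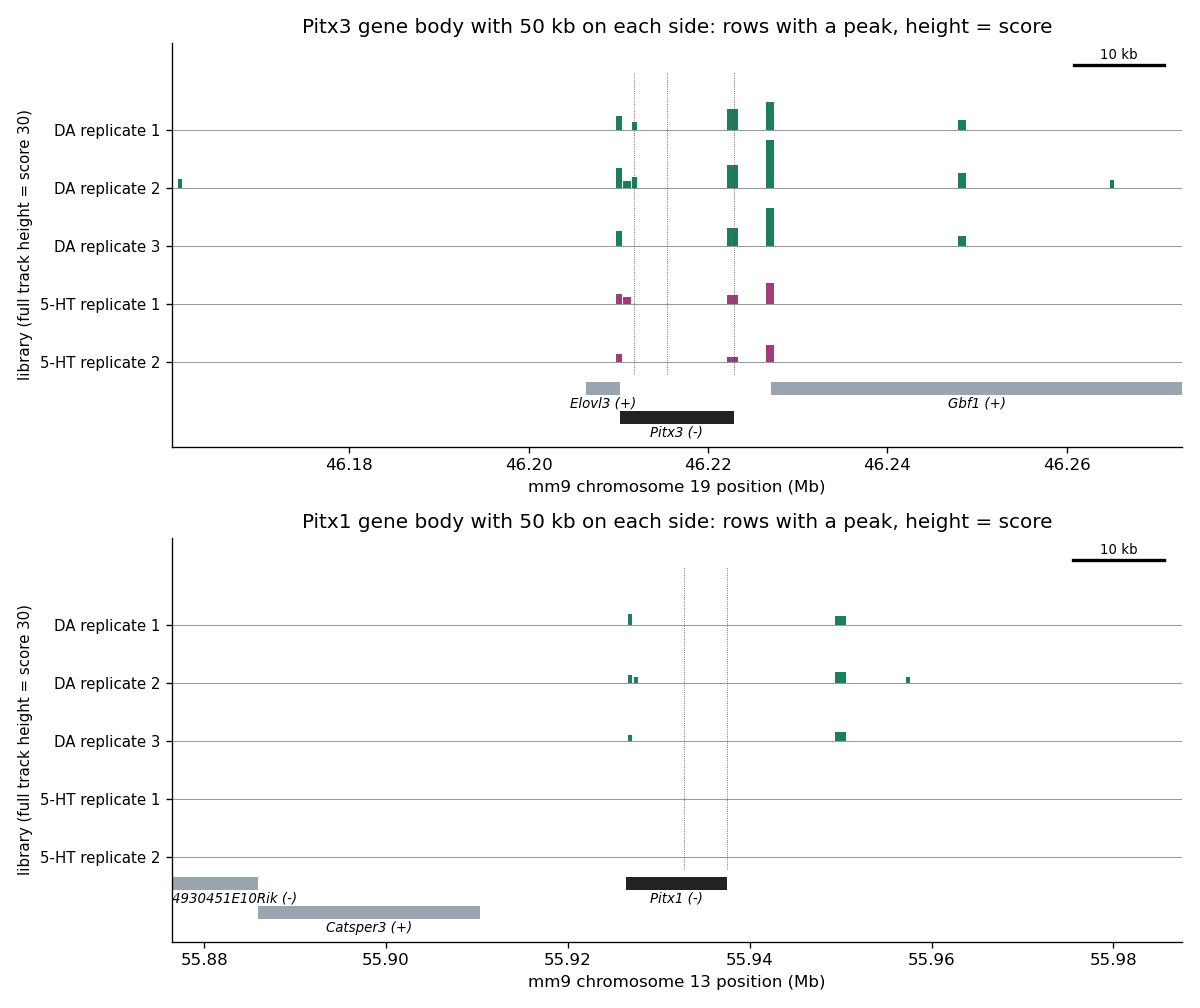
Rows with a peak around Pitx3 and Pitx1 in each of the 5 libraries, by mm9 position in Mb, with bar height for the deposited score, dotted lines for annotated starts of the 2 genes, and gene bodies below with their strand. Narrow rows are drawn at a minimum width. Peaks in the 5-HT libraries are seen at 4 rows of the Pitx3 window and at 0 rows of the Pitx1 window.

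The distal rows around Pitx3, those outside any promoter, numbered 5. The row chr19:46209707-46210413 covers the facing 3′ ends of Pitx3 and of Elovl3, a fatty acid elongase gene on the other strand, with 239 bp of untranslated Pitx3 exon. Its scores were 7.28, 10.3 and 8.13 in DA neurons and 5.52 and 4.32 in 5-HT neurons, or percentiles of 76.1, 90.8 and 88.1 against 71.3 and 68.9. It was therefore open in all 5 libraries, with a smaller gap between the cell types than the Pitx3 promoter had. The neighbouring row chr19:46210560-46211408, with 536 bp of coding sequence, had a peak of 3.50 in DA replicate 2 and of 3.88 in 5-HT replicate 1. It was the only row of the 12 with a peak in a 5-HT library and not in all 5.

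A single row of the Pitx3 window was open in all 3 DA libraries and closed, that is without a peak, in the 5-HT ones. This row, chr19:46247879-46248738, is 860 bp long and lies within an intron of the neighbouring gene Gbf1, which encodes a guanine nucleotide exchange factor of the Golgi, 25014 bp upstream of Pitx3. Its scores in DA replicates 1, 2 and 3 were 5.36, 7.89 and 5.13, and its percentiles were 54.1, 82.3 and 67.9. These are middle to high places in the DA lists. A window with at least 1 such row was found for 53.7% of protein-coding genes, and 13.4% of all rows were of this kind, against 1 of 8 here. Which gene the row acts on was not tested.

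This intronic row held AAGGTCA once, on the minus strand at chr19:46248605-46248611, and did not hold TAATCC. Among all distal rows open in the 3 DA libraries alone, 15.4% held AAGGTCA and 24.1% held TAATCC, at a median width of 518 bp. The bases around the match are shown since this is the only row of the Pitx3 window that was open in all 3 DA libraries and in no 5-HT library. They are mm9 chr19:46248508-46248708 on the minus strand, 5′ to 3′, with the searched word in capitals.
Row in the Gbf1 intron: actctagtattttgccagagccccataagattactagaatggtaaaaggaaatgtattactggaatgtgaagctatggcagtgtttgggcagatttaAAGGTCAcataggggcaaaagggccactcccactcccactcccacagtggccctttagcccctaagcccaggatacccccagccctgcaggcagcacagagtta
The match is a description of the letters, and no binding was measured.

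The other 2 distal rows of the Pitx3 window had a peak in DA replicate 2 alone. They were chr19:46160978-46161130, 49045 bp downstream of the gene, with a score of 4.72, and chr19:46264782-46265251 in the Gbf1 intron, with a score of 4.22. The latter held TAATCC at 46264936 and AAGGTCA at 46265146, once each. Of all rows, 17.4% were seen in DA replicate 2 alone, and in the windows of both genes together it was 4 of 12 rows. Each of the 12 rows had a peak in DA replicate 2, so no row of either gene was seen only in another library.

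The promoter of Gbf1 itself starts 4.18 kb from the Pitx3 start on the other strand and gives a local reference. Its row, chr19:46226459-46227387, had scores of 14.4, 25.0 and 19.6 in DA neurons and 10.9 and 9.12 in 5-HT neurons. Its percentiles were 97.9, 99.8 and 99.5 against 98.7 and 98.3, so they overlapped between the cell types. The deposited scores did not overlap, and percentiles this near 100 leave little room for a difference. The Pitx3 promoter score divided by the Gbf1 promoter score of the same library was 0.768, 0.478 and 0.473 in DA neurons and 0.454 and 0.324 in 5-HT neurons. On this scale, too, each DA library was above each 5-HT library, but DA replicates 2 and 3 were close to 5-HT replicate 1, and the exact permutation test gave p = 0.4 for 3 libraries against 2. The promoter of Elovl3, 16.5 kb from the Pitx3 start, had no peak in any library.

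Taking the Pitx3 window as a whole, DA replicates 1 to 3 had a peak at 5, 8 and 4 rows, and the 5-HT replicates at 4 and 3 rows. DA replicate 3 and 5-HT replicate 1 were equal, so the cell types overlapped. The means were 5.67 ± 2.08 (SD, n = 3) and 3.5 ± 0.707 (SD, n = 2), and the exact permutation test of their difference of 2.17 rows gave p = 0.3. Without DA replicate 2 the difference was 1 row. Per 10000 peaks of the library the order turned, with 0.946, 0.86 and 0.424 rows in DA neurons and 1.03 and 1.31 in 5-HT neurons. At equal numbers of peaks the counts were 3, 4 and 3 against 3 and 3, a difference of 0.333 rows. The excess of DA rows at Pitx3 thus nearly vanished at equal numbers of peaks. This limit leaves the scores of the kept rows as they were, so it could not turn the order of the promoter scores. The percentiles of the Pitx3 promoter could move, and at this setting each DA library was above each 5-HT library. With peaks limited to those above the median score of their library, the counts were 4, 6 and 4 against 3 and 2, which did not overlap, the difference was again 2.17 rows (exact permutation p = 0.1), and 1 row was again open in the 3 DA libraries alone. Per 100 kb, Pitx3 had 4.44, 7.1 and 3.55 rows in the DA libraries, where the median protein-coding gene had 2.95, 4.75 and 4.02, and 3.55 and 2.66 in the 5-HT libraries, where the median was 2.3 and 1.56. Pitx3 was above the median gene in every library other than DA replicate 3.

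Pitx1 also lies on the minus strand (mm9 chr13:55926415-55937553), with coding transcripts that start at 55932786 and 55937553. Neither start had a promoter row, and the promoter percentile was 0 in all 5 libraries. The nearest row lay 5.07 kb from the former start and 9.83 kb from the latter. A gene without a promoter peak in any library is not rare, as 34.9% of protein-coding genes had none. The Pitx1 promoters have a high GC content, 63.0% and 61.3%, with CpG ratios of 0.575 and 0.574. Among promoters of coding transcripts with a GC content of at least 55% and a CpG ratio under 0.6, 28.0% had no peak in any library and 39.7% had a peak in all 5. The principal Pitx3 promoter, at 58.6% GC and a CpG ratio of 0.611, falls in the class at or above 0.6, where 1.51% had no peak in any library and 84.0% had a peak in all 5. The use of these classes was chosen after the values were seen, and the members lie close to their border and differ little in CpG ratio.

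The 4 rows of the Pitx1 window were all distal, and none had a peak in a 5-HT library. The row chr13:55949343-55950552, 1210 bp long, is intergenic and 11790 bp upstream of the gene. Its scores were 4.86, 5.64 and 4.75 in DA replicates 1, 2 and 3, and its percentiles were 45.0, 66.6 and 63.2. These lie around the middle of each list, well below the Pitx3 promoter. It held neither TAATCC nor AAGGTCA.

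The row chr13:55926634-55926938, 305 bp long, lies in the untranslated part of the last exon of Pitx1. Its scores were 5.49, 4.46 and 3.20 in the DA libraries, or percentiles of 55.9, 50.4 and 18.3, so it was weak in DA replicate 3. It held TAATCC once, a word found at least once in 24.1% of the distal rows open in the 3 DA libraries alone. The other 2 rows, chr13:55927349-55927720 with 288 bp of coding sequence in the same exon, and the intergenic chr13:55957201-55957568, had peaks of 3.23 and 3.16 in DA replicate 2 alone. These scores are near the lowest of that list, 3.04.

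Counted over the Pitx1 window, DA replicates 1 to 3 had a peak at 2, 4 and 2 rows, and each 5-HT library at 0 rows. The cell types did not overlap, and the DA mean was 2.67 ± 1.15 rows (SD, n = 3). The exact permutation test gave p = 0.1, again the smallest possible with 3 libraries against 2. More rows in every DA than in every 5-HT library were found for 45.1% of protein-coding genes, and rows in every DA but in no 5-HT library for 2.73%. At least 2 rows open in the 3 DA libraries alone, as at Pitx1, were found for 26.6%. Per 10000 peaks of the library, Pitx1 had 0.378, 0.43 and 0.212 rows in DA neurons and 0 in 5-HT neurons, so this scaling, which cannot move a count of 0, kept the order. With each library limited to 22879 peaks, no row of the Pitx1 window was left in any library, and the DA-only rows fell from 2 to 0 at Pitx1 and from 1 to 0 at Pitx3, where 4 rows were left. Over all rows with a peak at this setting, 6.94% were open in the 3 DA libraries alone. With peaks limited to those above the median score of their library, 1, 2 and 1 rows were left in the DA libraries and none of them was shared by all 3. At equal numbers of peaks no difference could be seen at Pitx1, since no row was left to compare.

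The genes next to Pitx1 were as quiet. The promoters of Catsper3, a sperm calcium channel gene, and of the noncoding 4930451E10Rik, the only other genes with a promoter in the window, had no peak in any library. Per 100 kb, Pitx1 had 1.8, 3.6 and 1.8 rows in the DA libraries against 2.95, 4.75 and 4.02 for the median gene, and 29.0%, 35.9% and 16.5% of protein-coding genes had fewer. No row at all was found for 15.0% and 20.1% of genes in 5-HT replicates 1 and 2.

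Compared within each library, Pitx3 had 3, 4 and 2 more rows with a peak than Pitx1 in the DA libraries, and 4 and 3 more in the 5-HT libraries. The sign was the same in 5 of 5 libraries, with a mean of 3.2 ± 0.837 rows (SD, n = 5). The exact sign-flip permutation test gave p = 0.062, the smallest that 5 libraries allow. The windows are nearly equal in length, 113 and 111 kb. At equal numbers of peaks the mean difference was again 3.2 rows. The members differed in kind as well as in number. Of the 8 rows at Pitx3, 3 were open in all 5 libraries, namely its promoter, the Gbf1 promoter and the 3′ row, against 0 of 4 at Pitx1 and 12.8% of all rows. Of these 3 rows, 1 is the promoter of another gene.

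Regulators of midbrain DA neurons, the class of genes Pitx3 belongs to, were read in the same way. All 8 of Nr4a2, Lmx1a, Lmx1b, En1, En2, Foxa1, Foxa2 and Otx2 had a promoter peak in each DA library. Of all protein-coding genes, 59.8% to 63.7% had one there. In 5-HT replicates 1 and 2, 7 and 5 of the 8 had one, beside 58.2% and 49.6% of all protein-coding genes. In all 8, each DA percentile was above both 5-HT percentiles, an order seen for 53.3% of the protein-coding genes with a promoter peak in at least 1 library. The difference of mean percentiles ran from 20.2 points for Nr4a2 to 55.3 for Lmx1a, whose promoter was open in the DA libraries alone. Against 5-HT replicate 1 alone the lowest was 2.65 for Nr4a2. Otx2, Lmx1b and Foxa2 went from 42.3 to 16.7, from 48.9 to 24.3 and from 39.8 to 21.4, while En2 went from 24.7 to 25.1. Pitx3, at 58.0, was above all 8, but against 5-HT replicate 1 alone it was above 6 of 8, with 31.3 points against 55.3 for Lmx1a and 48.3 for Foxa1. By the difference against both 5-HT libraries, Foxa1, a forkhead factor, was nearest to Pitx3 among those open in all 5 libraries, at 55.1. Its percentiles were 76.8, 91.5 and 88.9 against 37.4 and 23.9. Against 5-HT replicate 1 alone, En2 was the nearest of these, at 25.1.

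Genes that Pitx3 is known to act on in DA neurons had promoter peaks in 6 of 6 cases in each DA library, where 59.8% to 63.7% of all genes had one, and in 3 of 6 in each 5-HT library, near the 58.2% and 49.6% of all genes there. Th had the widest difference, 90.5 points, and with Aldh1a1, a retinaldehyde dehydrogenase gene, it was open at its promoter in the DA libraries alone, as were 1.99% of protein-coding genes. Slc6a3, the dopamine transporter gene, had percentiles of 73.0, 56.1 and 58.8 in DA neurons and 11.2 and 0 in 5-HT neurons. Drd2, a dopamine receptor gene, was the exception in order, with 17.2, 27.7 and 31.3 against 4.68 and 37.6. Of the 6 genes, 5 had every DA percentile above both 5-HT percentiles. This order was seen for 53.3% of the protein-coding genes with a promoter peak in at least 1 library.

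Partners and targets of Pitx1 in hindlimb and pituitary mostly lacked promoter peaks. Tbx4, Tbx19, Lhx3, Lhb, Fshb and Cga, 6 of the 7 genes, had no promoter peak in any library, against 34.9% of all protein-coding genes. Pomc, which encodes the precursor of corticotropin, had percentiles of 29.6, 56.9 and 44.6 in the DA libraries and no peak in the 5-HT libraries.

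**Figure D2:**
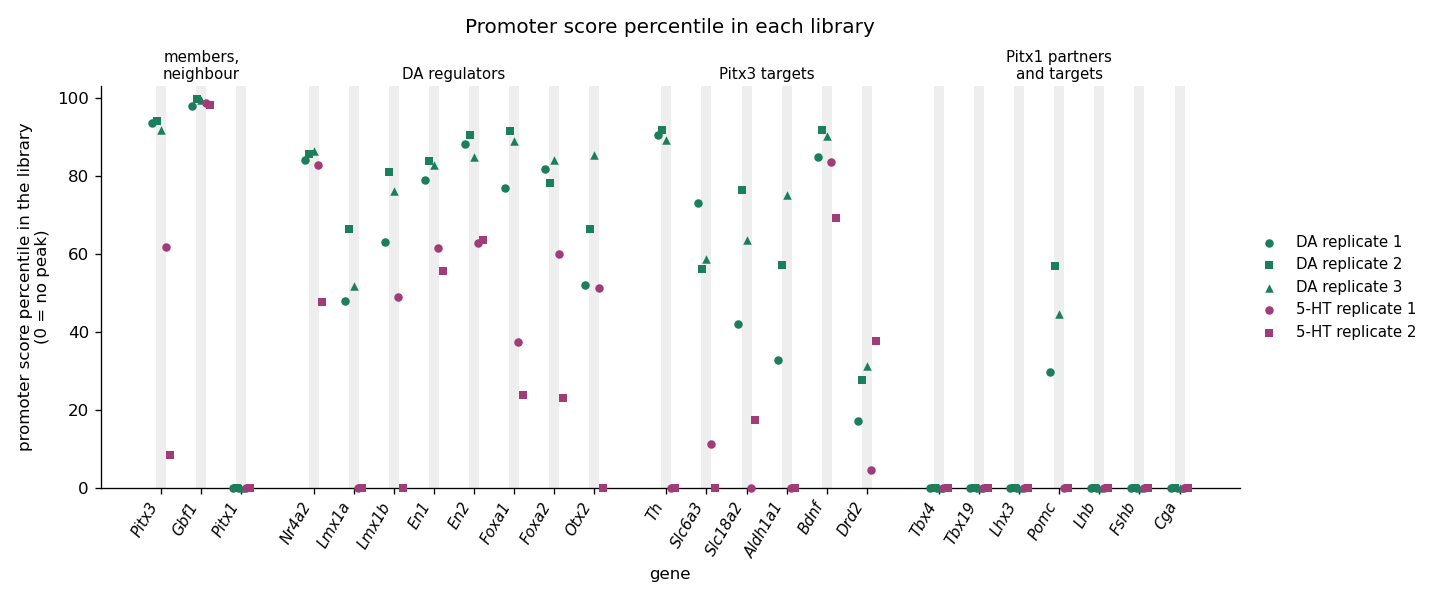
Promoter score percentile in each library, where 0 is no peak, for Pitx3, its neighbour Gbf1 and Pitx1, and for regulators of DA neurons, targets of Pitx3, and partners and targets of Pitx1, with 1 symbol for each of the 3 DA and 2 5-HT libraries. The Pitx3 promoter lies between 91.7 and 94.1 in the DA libraries and at 61.9 and 8.34 in the 5-HT libraries, while Pitx1 is at 0 in all 5.

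Other homeobox genes with the same DNA contact residue as the members differed among themselves. Otx1 had a promoter peak in all 5 libraries, Otx2 and Gsc in the DA libraries and 5-HT replicate 1, and Crx, a photoreceptor factor, in DA replicates 2 and 3 alone. No promoter of these 4 genes reached the Pitx3 percentile in any DA library, the highest being 85.5 for Otx2 in DA replicate 3.

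The promoter profiles closest to that of Pitx3, by Euclidean distance between percentiles over the 5 libraries, were those of 1600016N20Rik and Rassf7, which share a promoter row, at 5.69, followed by Rps7 at 6.35, Plk3 at 8.17 and Rps15 at 10.5. Rps7 and Rps15 encode ribosomal proteins used by all cells. Rps7 had percentiles of 90.9, 91.2 and 87.3 in DA neurons and 62.7 and 10.3 in 5-HT neurons. A profile like that of the Pitx3 promoter thus also occurs at genes with no known restriction to DA neurons.

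Markers of the other cells that a sort could hold, or in which the members are known to act, are given for their place beside these results. Of all protein-coding genes, 34.9% had no promoter peak in any library, and 59.8% to 63.7% had one in a DA library. No promoter peak was found in any library for the lens genes Cryaa, Mip and Foxe3 (0 of 3) or for the microglial genes Cx3cr1 and Csf1r (0 of 2). Of the skeletal muscle genes, Myog had a peak of 3.45 in DA replicate 1, at a percentile of 2.36, and Myod1 and Myf5 had none. Pericyte promoters were seen in the DA libraries alone, 0, 2 and 1 of 2, led by Pdgfrb at a percentile of 45.2 in DA replicate 2, with summed percentiles of 0, 65.4 and 12.9. The endothelial gene Cldn5 was open in every library but 5-HT replicate 2, with percentiles of 44.9, 58.3, 68.9 and 53.8, and Pecam1 had none.

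Radial glia and GABA neuron promoters were open in both cell types, beside 58.2% and 49.6% of all protein-coding genes in the 5-HT replicates. All 3 radial glia markers were open in every library but 5-HT replicate 2, where 2 of 3 were, with summed percentiles of 169, 164 and 196 against 158 and 78.3, led by Slc1a3 at 76.2 in DA replicate 3, while Sox2 had 48.0, 72.3 and 52.1 in DA neurons and 66.5 and 62.0 in 5-HT neurons. The 3 GABA neuron markers gave the same counts, with summed percentiles of 142, 161 and 164 against 137 and 62.2. The glutamate neuron marker Slc17a6 had percentiles of 90.7, 95.4 and 97.1 in DA neurons and 20.2 and 0 in 5-HT neurons, and Slc17a7 had no peak. Of the noradrenergic markers described, Dbh had no peak, and Phox2a had 1, at a percentile of 18.8 in DA replicate 3. The summed percentiles of the radial glia and GABA neuron lists, like the Pitx3 promoter, were lowest in 5-HT replicate 2. The same held for the lists of DA regulators (214), DA neuron markers (81.9) and 5-HT neuron markers (155). The Pitx3 target list was instead lowest in 5-HT replicate 1, with 99.4 against 124 in replicate 2. The share of genes with a promoter peak was also lowest in 5-HT replicate 2, and the part of this in the Pitx3 difference was not tested.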

How the data were processed

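ATAC-seq peak lists of 3 DA and 2 5-HT libraries were used. According to the methods and the submitters' processing notes, reads were trimmed (Trimmomatic, FastQC) with reads under 100 bp removed, aligned to mm9 with Bowtie2, cleared of duplicates with Picard and called with MACS2, and peaks less than 100 bp apart were merged with BEDOPS and annotated with HOMER. Tool versions and the calling threshold are not given in the sources used here. The authors deposited a score in column 5 for each row and library, whose scale is not named, and 0 means no peak. The lists hold no reads, so depth is unknown and precision is limited to the spread between libraries. The libraries came from independent sorts, and p-values measure only the spread between them. In 1 row, a misspelt chromosome name was read as Y.

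Rows were matched to GENCODE gene bodies of mm9 by an overlap of at least 1 bp. Percentiles rank a score among the scores above 0 of its library. Group differences were tested with 2-sided exact permutation tests over libraries. Alternatives were other windows (20 and 100 kb), equal numbers of peaks, merged peaks, row centres, higher scores, another promoter (2 kb upstream to 500 bp downstream), the row at the TSS, raw scores, pairs of equal replicate number and leaving out each library. Described were the members, promoter rows, rows open in the 3 DA or in all 5 libraries, neighbours, the 5 nearest promoter profiles, and gene lists for DA regulators, Pitx3 targets, Pitx1 partners, related homeobox genes and cell type markers. Of the listed marker genes, 1 is not reported here. The remaining window rows, the CpG classes and the stretch around the AAGGTCA match were chosen after their values were seen. Members and lists were chosen with earlier results of these data known. CpG-rich promoters had at least 55% GC and a CpG ratio of at least 0.6. The row lookup was tested on simulated data. Python 3.11.15, NumPy 2.4.6 and pandas 2.3.3 were used.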

Additional observations from a re-analysis of the deposited data

How the results depend on the processing

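The difference in Pitx3 promoter percentile stayed positive under every alternative run. It was 31.3 to 84.8 points when libraries were left out in turn, the ends being without 5-HT replicate 2 and without 5-HT replicate 1, and 53.9 points at equal numbers of peaks, a scale chosen after the data had been seen. As deposited scores it was 6.79. The Pitx1 promoter had no peak under any alternative.

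The number of open rows moved more. At equal numbers of peaks the DA excess was 0.333 rows at Pitx3, and its rows open in the 3 DA libraries alone were 0. Both values were 0 at Pitx1, where no row was left in any library, so no difference could show. With rows per 10000 peaks, also chosen after the data had been seen, the Pitx3 difference reversed to -0.428, while that of Pitx1 was 0.34. Within 20 kb, the DA excess at Pitx3 was 0.5, its DA-only rows were 0, and Pitx3 exceeded Pitx1 by 2.2 rows. Within 100 kb these were 4, 2 and 5.6, and Pitx1 had a DA excess of 5.5 with 4 DA-only rows. With only the upper part of the scores the DA excess at Pitx1 was 1.33 and its DA-only rows were 0. Except for the peak number and the window, which change the rows that can be counted, the cause was not tested. Leaving out libraries gave a DA excess of 1 to 3 rows at Pitx3 (1 without DA replicate 2) and of 2 to 3 at Pitx1, a Pitx3 minus Pitx1 difference of 3 to 3.5, and 1 to 2 DA-only rows at Pitx3 (2 without DA replicate 3), with 2 throughout at Pitx1. Merging peaks and using row centres changed no count.

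In a replicate block, which takes libraries numbered 1 and 2 as pairs, the DA excess was 3 rows at each gene, and the Pitx3 promoter difference was 58.7 points. Deviations of equally numbered libraries correlated at -0.04 and -0.0065 over the 16856 rows open in all 5 libraries. With 2 5-HT libraries, the deviations of each are the opposite of the other's. Such values therefore cannot decide whether the numbers pair the samples.

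The peak lists carry no read depth, and the 5-HT lists are the shorter ones, so a missing 5-HT peak at either gene says only that no peak was listed. The smallest p of 3 against 2 libraries is 0.1.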
